A study of Mus musculus with 6 samples.

Results

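Genes of transforming growth factor beta (TGF-beta) and activin signaling were followed in mouse pericardial adhesions, the scar-like bridges that form around the heart after injury of its lining. The genes are the 3 TGF-beta ligands Tgfb1, Tgfb2 and Tgfb3, the activin A subunit gene Inhba, the latency protein gene Ltbp1, the 3 receptor genes Tgfbr1, Tgfbr2 and Tgfbr3, the feedback inhibitor gene Smad7 and the induced matrix gene Tgfbi. They were taken by name from a list of pathway genes, chosen with earlier results of these data known. All 10 were found among the 23420 genes of the deposited tables. Male C57BL/6 mice, 8 weeks of age, received talc suspended in saline, at 2.5 mg/g and in a volume of 300 µL, in the pericardial cavity, and adhesion tissue and myocardium were collected separately. Adhesion tissue was sequenced on days 1, 3 and 7 after talc injection and whole heart on days 0, 3 and 7. Each of these 6 groups gave 1 library of total RNA depleted of ribosomal RNA. The first adhesion library carries day 1 in its title and stage label but day 0 in its source label, and it is called day 1 here. The labels of the day 0 heart do not mention adhesion induction, whereas those of the later hearts do, and no sham-operated group was among the libraries analysed here. The sources used here do not give the number of mice behind a library.

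TGF-beta is secreted in a latent form, bound to its own propeptide and, through that, to latent TGF-beta binding proteins that tether it to the matrix. After release, the ligand binds the type II receptor, which brings in and activates the type I receptor, and this kinase phosphorylates Smad2 and Smad3. The activated Smads join Smad4, enter the nucleus and switch on matrix genes as well as Smad7, which blocks the type I receptor and so limits the signal. Activin A uses receptors of its own and the same Smads, and both ligands are well known for turning fibroblasts into collagen-producing myofibroblasts.

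The libraries held between 1615922 and 1844565 reads in genes, and reads were found in 14852 to 16194 genes per library. The 10 genes together had 2079, 1886 and 2500 reads in adhesion tissue on days 1, 3 and 7 and 914, 1347 and 1334 reads in heart on days 0, 3 and 7. A level in CPM (counts per 1000000 reads) is the share of a library that a gene took, and 3 reads corresponded to 1.63 to 1.86 CPM. Levels of different genes were ordered per length, as RPKM, which is the CPM divided by the deposited exon length in kilobases, and shares of reads between genes are given with the share per length beside them. Ratios between days of 1 tissue were taken on the scale of the deposited values, which the authors had set within each tissue, and ratios between tissues were taken in CPM. Each ratio is given with its exact 95% interval from the reads. These intervals cover counting error only, not the variation between mice, and reads are not independent molecules. Since each group had 1 library, the differences were not checked against replicates, and no test across samples was possible. An exact binomial test of the reads of 2 libraries was used only as an alternative rule for calls. It also covers counting error only, and its p-values are not given. A gene was called higher or lower where the interval excluded 1, and the same rule was applied to all genes as a background.

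The libraries differed in cell composition, and in bulk tissue fewer cells of a type and less RNA per cell cannot be told apart. A list of 8 macrophage genes summed to 3690, 7010 and 6890 CPM in adhesion tissue on days 1, 3 and 7 and to 288, 1190 and 1420 CPM in heart on days 0, 3 and 7. The 7 fibroblast genes summed to 1130, 12200 and 18200 CPM in adhesion tissue and to 948, 4760 and 5400 CPM in heart. On days 3 and 7 most of these reads were from Col1a1, a collagen gene that TGF-beta is known to induce. It had 18262 of the 19737 list reads in adhesion tissue on day 3. The median log2 ratio of the 7 genes to the first library was 0.47 and 1.27 in adhesion tissue on days 3 and 7. In heart it was 0.85 and 0.54, so the sums overstate the change of the typical gene of this list. The 10 cardiomyocyte genes, among them the cardiac myosin gene Myh6, reached 28100, 515 and 12300 CPM in adhesion tissue against 146000, 118000 and 135000 CPM in heart. Of 9 skeletal muscle genes the sums in adhesion tissue were 6740, 14.2 and 2280 CPM, with Myh1 and Tnni2 at 0 on day 3. The adhesion libraries of days 1 and 7 therefore held muscle transcripts that the day 3 library nearly lacked. The 6 lung epithelium genes summed to 255, 3.71 and 646 CPM in adhesion tissue and to 0.584, 2.21 and 224 CPM in heart. On day 3 Sftpc, Sftpa1 and Sftpd of the lung list were at 0 in both tissues. The 5 neutrophil genes found summed to 2440, 703 and 608 CPM in adhesion tissue and to 28.0, 120 and 101 CPM in heart.

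In adhesion tissue, 3 of the 10 genes were higher and 3 were lower on day 3 than on day 1, against a background of 12.5% higher and 16.6% lower among all 16946 genes with a read. On day 7, 5 of the 10 were higher and 2 were lower than on day 1, against 13.9% and 17.8%. In heart, 4 of the 10 were higher and 2 were lower on day 3 than on day 0, against 9.19% and 11.2%, and on day 7, 4 were higher and 1 was lower, against 8.46% and 10.2%. Most of the 10 genes had at least 30 reads, and more reads give narrower intervals. Among genes with at least 30 reads over both libraries, 17.8% were higher and 23.7% lower in adhesion tissue on day 3, and 11.7% were higher and 17.5% lower in heart on day 3. On day 7 these shares were 19.4% and 26.1% in adhesion tissue and 10.9% and 16.1% in heart. The median log2 ratio of the 10 genes in adhesion tissue was -0.27 on day 3 and 0.41 on day 7, beside -0.10 and -0.05 over all genes. In heart the median was 0.54 on day 3 and 0.64 on day 7, beside -0.02 and -0.00 over all genes. Few of the genes passed a 3-fold change with a pseudocount of 1. In heart 1 of the 10, Tgfbi, was over 3-fold higher on day 3 and none was lower, where the background was 6.66% and 1.77%, and on day 7 none passed in either direction, where it was 6.84% and 1.52%. In adhesion tissue none passed on day 3, where 3.78% of genes were over 3-fold higher and 6.7% lower. On day 7 only Inhba passed, and it was lower, where the background was 5.13% higher and 4.88% lower.

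**Figure D1:**
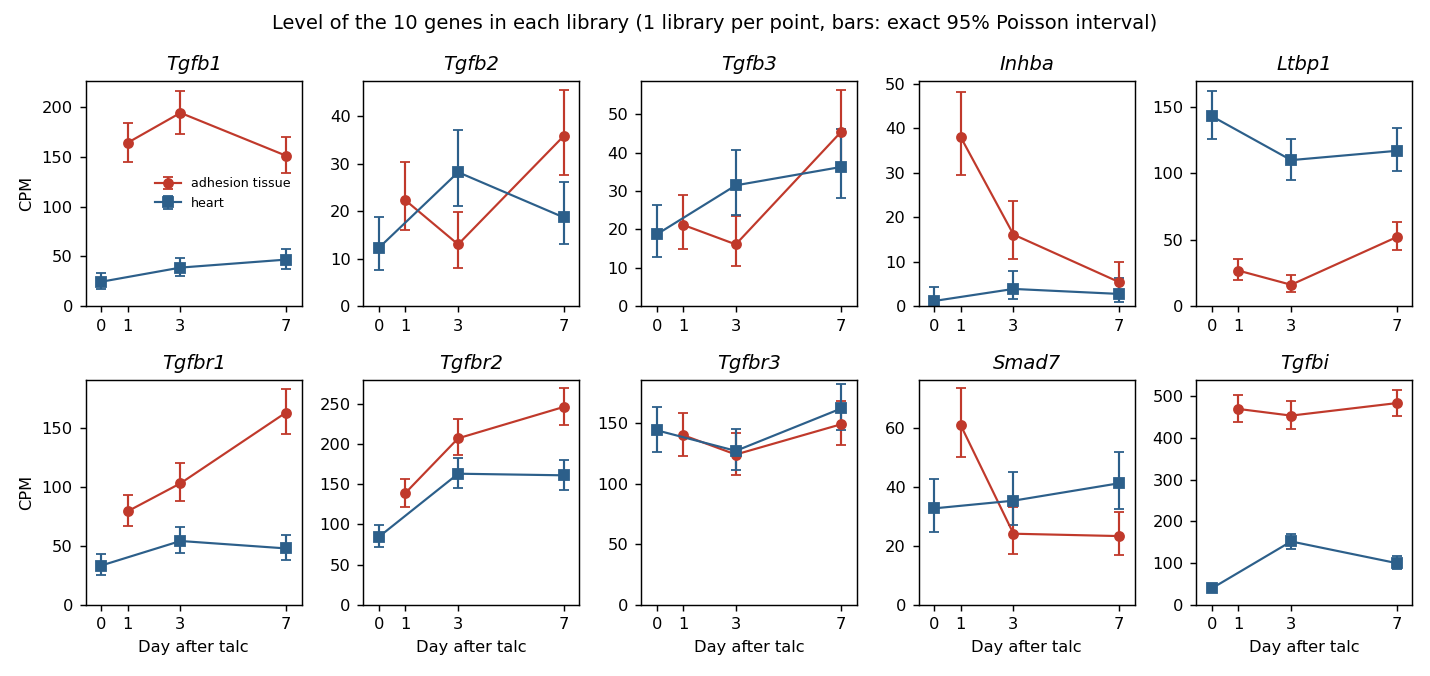
CPM (y axis, starting at 0, a separate scale for each gene) against the day after talc (x axis) for the 10 genes, with adhesion tissue as red circles and heart as blue squares. Each point is 1 library and each bar its exact 95% Poisson interval. Tgfb1 and Tgfbi lie above heart in every adhesion library, Ltbp1 lies below it, and Inhba and Smad7 are highest in adhesion tissue on day 1.

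Tgfb1 was the TGF-beta ligand gene with the most reads in adhesion tissue, and its level there changed little over the week. TGF-beta 1 is the isoform that leukocytes, platelets and wound tissue are best known for. Tgfb1 (mm10 chromosome 7, 25687002 to 25704996, plus strand) had 293, 313 and 279 reads in adhesion tissue on days 1, 3 and 7, or 164, 194 and 151 CPM. In heart it had 42, 70 and 85 reads on days 0, 3 and 7, or 24.5, 38.7 and 46.7 CPM. All 3 adhesion libraries were above all 3 heart libraries. The same held for the sums of the macrophage and neutrophil lists, and their part in the Tgfb1 values was not tested. In adhesion tissue Tgfb1 was 1.19-fold higher on day 3 than on day 1 (1.01 to 1.4), and its ratio on day 7 was 0.946 (0.8 to 1.12). In heart it was 1.75-fold higher on day 7 than on day 0 (1.2 to 2.6), and the ratio on day 3 was 1.4 (0.94 to 2.1). The day 3 log2 ratio of Tgfb1 in heart was 0.48 on the deposited scale and 0.66 in CPM, where the interval lay above 1. The day 3 call of Tgfb1 in adhesion tissue was lost with the 99% interval and with the exact binomial test.

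Tgfb2 and Tgfb3, the isoform genes best known from heart development and from mesenchymal cells, had their fewest reads in adhesion tissue on day 3. Tgfb2 (chromosome 1, 186623186 to 186705992, minus strand) had 40, 21 and 66 reads in adhesion tissue and 21, 51 and 34 reads in heart. Its adhesion ratio to day 1 was 0.586 on day 3 (0.328 to 1.02), and it was 1.64-fold higher on day 7 (1.09 to 2.49). In heart Tgfb2 was 2.04-fold higher on day 3 than on day 0 (1.2 to 3.56), and the ratio on day 7 was 1.4 (0.791 to 2.54). Tgfb3 (chromosome 12, 86056743 to 86079041, minus strand) had 38, 26 and 84 reads in adhesion tissue and 32, 57 and 66 reads in heart. It was 2.2-fold higher in adhesion tissue on day 7 than on day 1 (1.48 to 3.31) and 1.79-fold higher in heart on day 7 than on day 0 (1.15 to 2.82). In heart on day 3 the log2 ratio of Tgfb3 was 0.58 on the deposited scale, where its interval included 1, and 0.75 in CPM, where it did not. The exact binomial test lost the calls of Tgfb2 in heart on day 3 and in adhesion tissue on day 7 and that of Tgfb3 in heart on day 7. On day 3 both genes had their low point in adhesion tissue but not in heart. Their models share 127 and 420 exon bases with genes on the opposite strand, Gm29491 for Tgfb2 and Gm37804 and Gm48008 for Tgfb3. The sources do not say whether counting used strand, and reads from these stretches are uncertain.

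Of the reads of the 3 ligand genes, Tgfb1 took 79.0% (exact binomial 95% interval 74.5 to 83.0), 86.9% (83.0 to 90.2) and 65.0% (60.3 to 69.5) in adhesion tissue on days 1, 3 and 7. In heart it took 44.2% (34.0 to 54.8), 39.3% (32.1 to 46.9) and 45.9% (38.6 to 53.4) on days 0, 3 and 7. The intervals of the 2 tissues did not overlap. Tgfb3 took 10.2%, 7.22% and 19.6% of these reads in adhesion tissue and 33.7%, 32.0% and 35.7% in heart. Per length Tgfb1 was also the highest of the 3 in every library, with 87.7%, 92.5% and 77.5% of the length-corrected sum in adhesion tissue and 59.1%, 54.7% and 60.3% in heart.

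**Figure D2:**
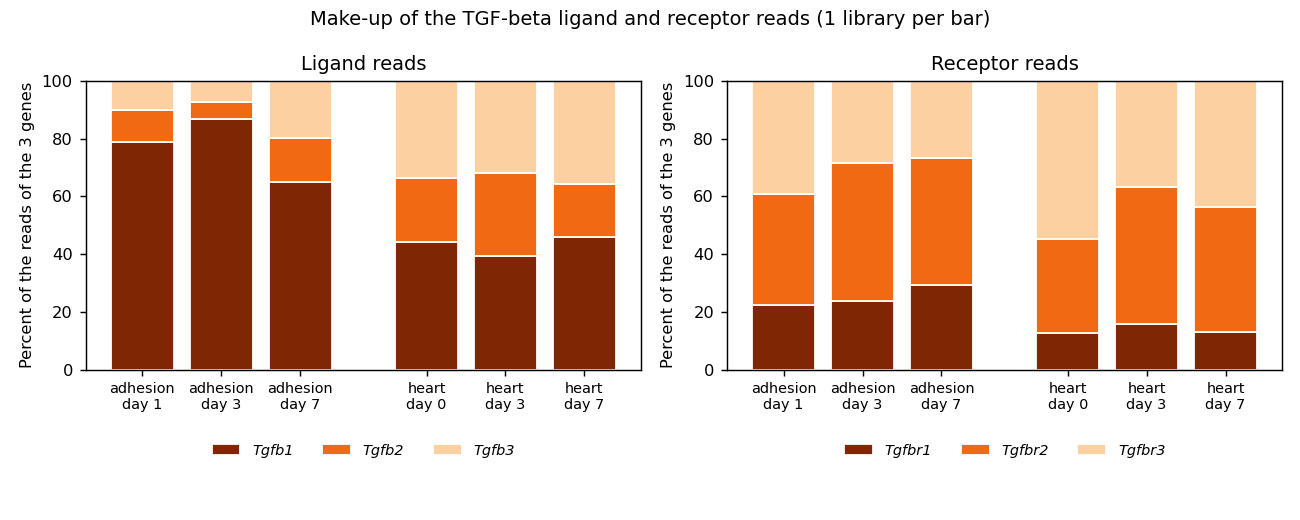
Percent of the reads of the 3 ligand genes (left) and the 3 receptor genes (right) that each gene took, with 1 library per bar, adhesion tissue on the left of each panel and heart on the right. Tgfb1 fills 65.0% to 86.9% of the ligand bars in adhesion tissue and 39.3% to 45.9% in heart, and Tgfbr3 fills 26.7% to 39.0% of the receptor bars in adhesion tissue and 36.9% to 54.9% in heart.

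The windows upstream of Tgfb1 and Tgfb2 are shown because on day 3 these ligand genes lay on opposite sides of heart, and that of Ltbp1 because it lay farthest below heart of the 10 genes on that day. Each is the 250 bases before the RefSeq start site in GRCm38.p6, read 5′ to 3′ on the strand of the gene, with motif matches in capitals. Of the 10 genes 7 had such a window. The motifs searched on both strands were the GC box GGGCGG, the TATA box TATAAA, the short Smad motif CAGACA, the Smad palindrome GTCTAGAC, the AP-1 site TGACTCA and the cyclic AMP response element TGACGTCA. Of 32851 windows of this length in the RefSeq table, 32.7% held the GC box, 12.4% the TATA box, 17.1% the short Smad motif, 0.167% the Smad palindrome, 4.46% the AP-1 site and 1.55% the cyclic AMP response element. No listed motif contains another in full. The Tgfb1 window (chr7:25686752-25687001, plus strand) holds 5 GC boxes and no other listed motif, and 75.2% of its bases are G or C, beside a median of 52.4% over all windows. The Tgfb2 window (chr1:186705990-186706239, minus strand) holds no GC box, 1 TATA box that begins 31 bases before the start and 1 short Smad motif that begins 204 bases before it, with 53.6% G or C. The first Ltbp1 window (chr17:75005279-75005528, plus strand), which ends at the deposited start of the gene, holds 1 cyclic AMP response element, which begins 73 bases before the start, and none of the others. RefSeq gives Ltbp1 another start farther into the gene, whose window (chr17:75178531-75178780) holds 2 short Smad motifs and no cyclic AMP response element and is not printed. These matches are descriptions of letters, and no binding was measured here.
Tgfb1: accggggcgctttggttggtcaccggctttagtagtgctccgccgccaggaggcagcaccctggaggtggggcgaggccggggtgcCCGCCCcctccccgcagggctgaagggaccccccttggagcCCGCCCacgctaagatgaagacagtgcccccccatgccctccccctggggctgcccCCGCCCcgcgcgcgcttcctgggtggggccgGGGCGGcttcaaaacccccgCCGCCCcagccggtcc
Tgfb2: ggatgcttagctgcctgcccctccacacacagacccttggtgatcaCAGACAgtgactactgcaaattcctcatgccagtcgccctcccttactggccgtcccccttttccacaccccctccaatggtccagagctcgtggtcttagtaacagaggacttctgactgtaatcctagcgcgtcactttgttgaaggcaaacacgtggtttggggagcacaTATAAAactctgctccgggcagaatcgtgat
Ltbp1: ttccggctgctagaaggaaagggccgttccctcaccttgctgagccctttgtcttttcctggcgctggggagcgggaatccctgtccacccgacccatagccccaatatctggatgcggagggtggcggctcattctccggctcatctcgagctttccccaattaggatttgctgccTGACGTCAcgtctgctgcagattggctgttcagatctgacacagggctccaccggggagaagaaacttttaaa

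Inhba, whose product pairs with itself to form activin A, had the largest ratio of the 10 genes between days 1 and 7 in adhesion tissue. The deposited model of Inhba (chromosome 13, 16014475 to 16027211, plus strand) has 1529 exon bases and ends short of the GENCODE model (16011851 to 16031621), so reads outside it are not in these values. Inhba had 68, 26 and 10 reads in adhesion tissue on days 1, 3 and 7, or 38.0, 16.1 and 5.42 CPM, and each later library was lower than the one before. It was 2.34-fold lower on day 3 than on day 1 (1.47 to 3.84) and 6.84-fold lower on day 7 (3.5 to 14.9). In heart it had 2, 7 and 5 reads on days 0, 3 and 7, and the ratios to day 0 were 2.93 on day 3 (0.559 to 28.9) and 2.17 on day 7 (0.355 to 22.7). A heart change of Inhba was not detectable at this depth. Of the reads of Inhba and Inhbb, the gene of the activin B subunit, Inhba took 61.8% (52.1 to 70.9), 43.3% (30.6 to 56.8) and 26.3% (13.4 to 43.1) in adhesion tissue. Per length these shares were 81.8%, 68.0% and 49.8%, so Inhba took the larger share on days 1 and 3. Inhbb itself had 42, 34 and 28 adhesion reads, and its ratio to day 1 was 0.663 on day 7 (0.396 to 1.09). The neutrophil list was also highest in adhesion tissue on day 1, and its part in the Inhba values was not tested.

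Ltbp1, which encodes a latent TGF-beta binding protein, had its highest levels in heart. Ltbp1 (chromosome 17, 75005529 to 75392967, plus strand) had 48, 26 and 96 reads in adhesion tissue, or 26.8, 16.1 and 52.0 CPM. In heart it had 245, 199 and 213 reads, or 143, 110 and 117 CPM, so every heart library was above every adhesion library. It was 1.47-fold lower in heart on day 3 than on day 0 (1.21 to 1.78) and 1.33-fold lower on day 7 (1.1 to 1.6). In adhesion tissue it was 1.65-fold lower on day 3 than on day 1 (1.01 to 2.78) and 1.99-fold higher on day 7 (1.39 to 2.87). Both the cardiomyocyte list, with 28100, 515 and 12300 CPM on days 1, 3 and 7, and Ltbp1 were lowest in adhesion tissue on day 3. As an alternative, a share of the day 0 heart library was taken out of each adhesion library, the share being set by 9 cardiomyocyte genes without Ttn, in a step added after the data had been seen. The shares were 8.6% on day 1, 0.296% on day 3 and 5.27% on day 7. After this step Ltbp1 kept 26.9, 25.3 and 83.1 adhesion reads, the day 3 ratio to day 1 was 1.05 and the day 7 ratio was 3.07. By its construction the step takes most from the day 1 library and almost nothing from day 3. Reads of skeletal muscle and lung were not taken out, and the part of heart reads in the Ltbp1 values was not tested. The day 3 call of Ltbp1 was also lost with edgeR's TMM factors, with DESeq2 size factors, with the 99% interval and with the exact binomial test.

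Among the receptor genes, Tgfbr1 and Tgfbr2 were higher in adhesion tissue on both later days and Tgfbr3 was not called there. Tgfbr1, the type I receptor kinase (chromosome 4, 47353305 to 47414924, plus strand), had 142, 166 and 301 reads in adhesion tissue, or 79.3, 103 and 163 CPM, and 57, 98 and 87 reads in heart, or 33.3, 54.1 and 47.8 CPM. Every adhesion library was above every heart library. Tgfbr1 was 1.3-fold higher in adhesion tissue on day 3 than on day 1 (1.04 to 1.64) and 2.11-fold higher on day 7 (1.72 to 2.59). In heart it was 1.44-fold higher on day 3 than on day 0 (1.03 to 2.03), and the day 7 ratio was 1.32 (0.936 to 1.88). The day 3 calls of Tgfbr1 were lost in both tissues with the 99% interval and with the exact binomial test. On day 7 the sums of the macrophage, fibroblast and lung lists were higher than in the first library of each tissue. Their part in the values of the receptor genes was not tested.

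Tgfbr2, the ligand-binding type II receptor (chromosome 9, 116087695 to 116175363, minus strand), had 249, 335 and 454 reads in adhesion tissue and 145, 296 and 292 reads in heart. It was 1.5-fold higher in adhesion tissue on day 3 than on day 1 (1.27 to 1.78) and 1.81-fold higher on day 7 (1.55 to 2.12). In heart it was 1.71-fold higher on day 3 than on day 0 (1.4 to 2.1) and 1.74-fold higher on day 7 (1.43 to 2.14). On the deposited scale it was the only one of the 10 genes that was higher in all 4 comparisons with the first library of a tissue, and in CPM the heart interval of Tgfbr1 on day 7 also lay above 1.

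Tgfbr3 encodes betaglycan, a coreceptor that presents ligand, above all TGF-beta 2, to the type II receptor. Tgfbr3 (chromosome 5, 107106570 to 107289595, minus strand) had 250, 200 and 275 reads in adhesion tissue and 246, 230 and 295 reads in heart, and 297 of its exon bases are shared with Gm43422 on the same strand. Its levels lay between 124 and 149 CPM in adhesion tissue and between 127 and 162 CPM in heart, so the tissues overlapped. The adhesion ratios to day 1 were 0.893 on day 3 (0.738 to 1.08) and 1.09 on day 7 (0.918 to 1.3). In heart Tgfbr3 was 1.28-fold lower on day 3 than on day 0 (1.06 to 1.53), and the day 7 ratio was 1.04 (0.874 to 1.24). The heart fall on day 3 depended on the scale, since the log2 ratio was -0.35 on the deposited scale and -0.18 in CPM, where the interval included 1. Deposited log2 ratios in heart lay 0.17 below those in CPM on day 3 and 0.12 below on day 7, for every gene alike. Of the reads of the 3 receptor genes, Tgfbr3 took 39.0% (35.2 to 42.9), 28.5% (25.2 to 32.0) and 26.7% (24.0 to 29.5) in adhesion tissue and 54.9% (50.2 to 59.6), 36.9% (33.1 to 40.8) and 43.8% (40.0 to 47.6) in heart. The share does not depend on the scale of a library, and in both tissues the first library had the highest. Per length Tgfbr3 took 34.9%, 25.0% and 23.5% in adhesion tissue and 50.2%, 32.4% and 39.0% in heart.

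Smad7, the inhibitory Smad that targets the type I receptor for removal, was lower in adhesion tissue after day 1. Smad7 (chromosome 18, 75367365 to 75395934, plus strand) had 109, 39 and 43 reads in adhesion tissue, or 60.9, 24.1 and 23.3 CPM. It was 2.5-fold lower on day 3 than on day 1 (1.72 to 3.71) and 2.55-fold lower on day 7 (1.78 to 3.72). In heart it had 56, 64 and 75 reads, or 32.7, 35.3 and 41.2 CPM, with ratios to day 0 of 0.958 on day 3 (0.659 to 1.4) and 1.16 on day 7 (0.81 to 1.67). With the heart share taken out, Smad7 was 2.4-fold lower in adhesion tissue on day 3 and 2.62-fold lower on day 7. The skeletal muscle list (6740, 14.2 and 2280 CPM) and the neutrophil list (2440, 703 and 608 CPM) were also highest in adhesion tissue on day 1, and their part in the Smad7 values was not tested. Inhba and Smad7 were the genes that were lower on both later days in adhesion tissue.

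Tgfbi, named for its induction by TGF-beta, encodes a secreted matrix protein that binds collagen and integrins. Tgfbi (chromosome 13, 56609603 to 56639339, plus strand) had 842, 734 and 892 reads in adhesion tissue, or 470, 454 and 484 CPM, and the 3 libraries lay close together. Its adhesion ratios to day 1 were 0.973 on day 3 (0.88 to 1.08) and 1.05 on day 7 (0.957 to 1.16), and with TMM factors the day 7 log2 ratio of 0.15 had an interval above 1. In heart it had 68, 275 and 182 reads, or 39.7, 152 and 100 CPM. It was 3.39-fold higher in heart on day 3 than on day 0 (2.59 to 4.49) and 2.32-fold higher on day 7 (1.75 to 3.11), the largest heart ratio whose interval excluded 1 among the 10 genes on either day. The macrophage and fibroblast lists were also higher in heart on days 3 and 7 than on day 0, and their part in the Tgfbi values was not tested.

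**Figure D3:**
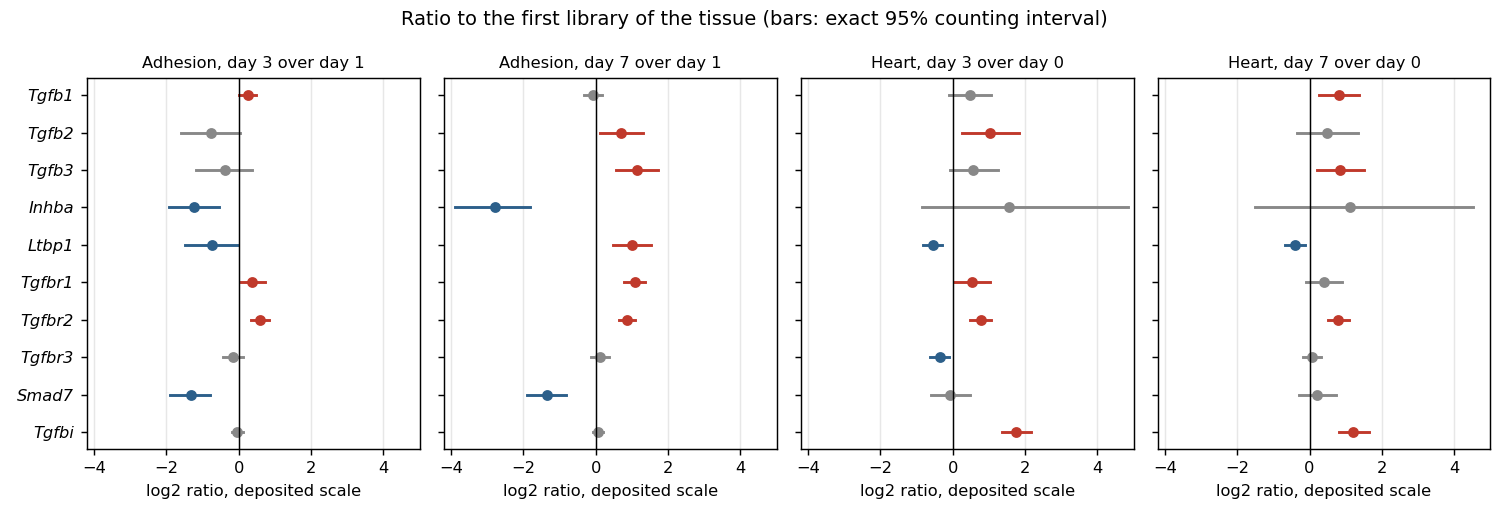
Log2 ratio on the deposited scale (x axis) of each of the 10 genes (rows) to the first library of its tissue, with adhesion tissue in the left pair of panels and heart in the right pair. Points are ratios of 1 library to another, bars are exact 95% counting intervals, and red, blue and grey mark intervals above, below and across 0. Tgfbr2 is red in all 4 panels, and Inhba and Smad7 are blue in both adhesion panels.

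Days 3 and 7 were also compared directly. On day 7, 6 of the 10 genes were higher in adhesion tissue than on day 3 and 2 were lower, against a background of 11.1% and 8.78%. Of genes with at least 30 reads, 15.4% were higher and 12.9% lower. Tgfb2 was 2.8-fold (1.69 to 4.82), Tgfb3 2.88-fold (1.83 to 4.65) and Ltbp1 3.29-fold (2.11 to 5.28) higher on day 7 than on day 3. Each of these had its lowest adhesion level on day 3. The cardiomyocyte list had 12300 CPM on day 7 and 515 CPM on day 3, the skeletal muscle list 2280 and 14.2 CPM and the lung list 646 and 3.71 CPM, and the part of these tissues in the ratios was not tested. With the heart share taken out the ratios of Tgfb2, Tgfb3 and Ltbp1 were 2.76, 2.83 and 2.93. Tgfbr1 was 1.61-fold (1.33 to 1.96), Tgfbr2 1.21-fold (1.05 to 1.39) and Tgfbr3 1.22-fold (1.02 to 1.48) higher, whereas Tgfb1 was 1.26-fold (1.07 to 1.49) and Inhba 2.92-fold (1.36 to 6.79) lower. The calls of Tgfbr2 and Tgfbr3 were lost in CPM without the 23 muscle, erythroid and Rn45s genes, with log2 ratios of 0.19 and 0.22, and with the exact binomial test. In heart 1 of the 10 genes was higher on day 7 than on day 3 and 1 was lower, against 5.8% and 4.33%. The heart shares of genes with at least 30 reads were 8.42% and 5.84%. Tgfbr3 was 1.33-fold higher (1.11 to 1.58), a call that the exact binomial test lost, and Tgfbi was 1.46-fold lower (1.21 to 1.77).

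On days 3 and 7 both tissues were sampled, and their levels were compared in CPM. On day 3, 5 of the 10 genes were higher in adhesion tissue than in heart and 3 were lower, against 27.6% and 18.0% of all genes. On day 7, 5 were higher and 2 were lower, against 26.9% and 15.4%. Of genes with at least 30 reads over both libraries, 38.0% were higher and 25.0% lower on day 3, and 37.9% and 22.0% on day 7. Over all genes the median log2 ratio of adhesion tissue to heart was 0.22 on day 3 and 0.29 on day 7, so in CPM a modest excess in adhesion tissue was usual. This excess depended on the scale. With edgeR's TMM factors 3411 genes were higher in adhesion tissue and 3743 lower on day 3, and 3290 and 3424 on day 7. Tgfb1 was 5.01-fold higher in adhesion tissue on day 3 (3.86 to 6.59) and 3.24-fold higher on day 7 (2.53 to 4.17). Tgfbi was 2.99-fold higher on day 3 (2.6 to 3.45) and 4.83-fold higher on day 7 (4.11 to 5.7). Tgfbr1 was 1.9-fold higher on day 3 (1.47 to 2.46) and 3.41-fold higher on day 7 (2.68 to 4.38). In CPM these 3 genes stood above heart on both days by more than the median of all genes. The macrophage list was 5.89-fold higher in adhesion tissue on day 3 and 4.85-fold higher on day 7. The neutrophil list was 5.87-fold and 6.01-fold higher on these days, and the part of these cells in the ratios of the 3 genes was not tested. Tgfbr2 was 1.27-fold higher on day 3 (1.08 to 1.49) and 1.53-fold higher on day 7 (1.32 to 1.78), and on day 3 its log2 ratio of 0.34 became 0.08 with edgeR's TMM factors and 0.15 with DESeq2 size factors, where the interval included 1.

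Inhba had 26 adhesion reads against 7 heart reads on day 3 and was 4.16-fold higher in adhesion tissue (1.76 to 11.4). On day 7 it had 10 adhesion reads against 5 heart reads, a ratio of 1.97 (0.614 to 7.35). Ltbp1 was 6.83-fold lower in adhesion tissue than in heart on day 3 (4.53 to 10.7) and 2.25-fold lower on day 7 (1.76 to 2.89). Tgfb2 changed sides, being 2.17-fold lower in adhesion tissue on day 3 (1.28 to 3.79) and 1.91-fold higher on day 7 (1.25 to 2.99). Tgfb3 was 1.96-fold lower on day 3 (1.21 to 3.24), with a ratio of 1.25 on day 7 (0.898 to 1.76). Smad7 had a ratio of 0.683 on day 3 (0.446 to 1.03) and was 1.77-fold lower in adhesion tissue on day 7 (1.2 to 2.64). With TMM factors Tgfbr3 was lower in adhesion tissue on both days, with log2 ratios of -0.30 and -0.38, and Smad7 was lower on day 3 as well, with -0.81. Whether these differences between tissues differed between the days was not tested, since each rests on 1 library.

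**Figure D4:**
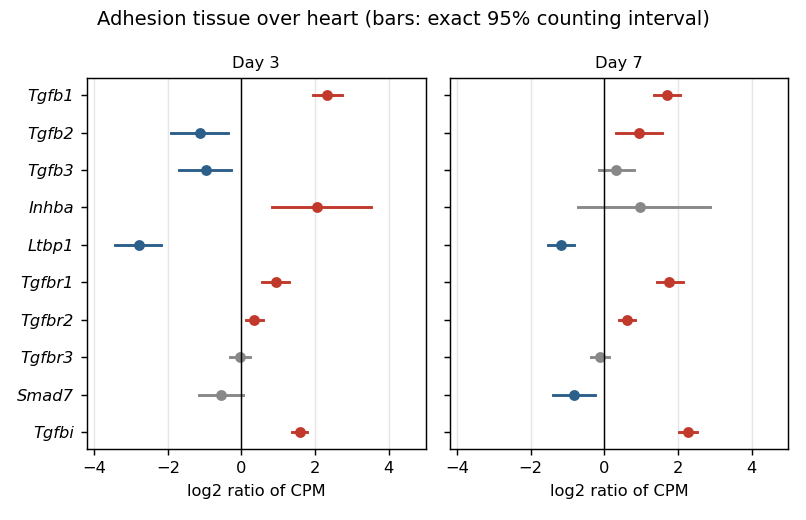
Log2 ratio of CPM in adhesion tissue over CPM in heart (x axis) for the 10 genes (rows) on day 3 (left) and day 7 (right), with exact 95% counting intervals as bars and 1 library per tissue and day. Red, blue and grey mark intervals above, below and across 0. Tgfb1, Tgfbi, Tgfbr1 and Tgfbr2 are red and Ltbp1 is blue on both days, and Tgfb2 is blue on day 3 and red on day 7.

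Per length the order of the genes also differed between the tissues. In adhesion tissue Tgfbi came first with 176, 170 and 181 RPKM on days 1, 3 and 7, Tgfb1 came next with 78.2, 92.5 and 72.2 RPKM and Tgfbr2 followed with 29.1, 43.3 and 51.4 RPKM. The intervals of Tgfbi and Tgfb1 and those of Tgfb1 and Tgfbr2 did not overlap in any adhesion library. Ltbp1 was last on days 1 and 3 with 3.30 and 1.98 RPKM, without being separable from Tgfb2, and Inhba was last on day 7 with 3.55 RPKM, without being separable from Smad7. On day 1 Inhba had 24.8 RPKM, between Tgfbr2 and Tgfbr3, and its interval (19.3 to 31.5) overlapped both. In heart on day 0 Tgfbr3 came first with 23.7 RPKM (20.9 to 26.9), above Tgfbr2 with 17.7 and Ltbp1 with 17.6 RPKM, which were not separable. On days 3 and 7 Tgfbi led in heart with 56.7 and 37.4 RPKM, above Tgfbr2 with 34.1 and 33.5 RPKM, and on day 7 their intervals overlapped. Inhba was last in every heart library with 0.764, 2.53 and 1.80 RPKM.

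Further genes of the pathway were counted from 6 lists with 63 genes in all. These lists were chosen with earlier results of these data known, so their counts are a description only. The latency and activation list includes Thbs1, whose product thrombospondin 1 can release active TGF-beta, and Fbn1, whose product fibrillin 1 holds the latent complex in the matrix. The shares of all genes called higher and lower were 12.5% and 16.6% in adhesion tissue on day 3, 13.9% and 17.8% on day 7, and in heart 9.19% and 11.2% on day 3 and 8.46% and 10.2% on day 7. Of the 11 genes of the list, 5 were higher and 5 lower in adhesion tissue on day 3, 6 and 2 on day 7, and in heart 5 and 2 on day 3 and 7 and 1 on day 7. Thbs1 had 7540, 1745 and 974 reads in adhesion tissue and 69, 356 and 143 reads in heart. It was 3.87-fold lower in adhesion tissue on day 3 than on day 1 (3.67 to 4.08) and 7.79-fold lower on day 7 (7.29 to 8.34), but 4.32-fold higher in heart on day 3 than on day 0 (3.33 to 5.68). It shared with Inhba a peak in adhesion tissue on day 1. Fbn1 was higher in all 4 comparisons, in adhesion tissue 2.15-fold on day 3 (1.96 to 2.35) and 2.73-fold on day 7 (2.51 to 2.98), and in heart 3.88-fold on day 3 (3.38 to 4.47) and 3.23-fold on day 7 (2.8 to 3.73). Lrrc33, which anchors latent TGF-beta 1 on macrophages and microglia, had 220, 442 and 276 reads in adhesion tissue and 14, 60 and 67 in heart. Ltbp4 had 337, 80 and 309 reads in adhesion tissue and 1195, 702 and 1115 in heart. Like Ltbp1 it was higher in every heart library than in every adhesion library and lowest in adhesion tissue on day 3.

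The inhibitor and feedback list had 1 of 12 genes higher and 6 lower in adhesion tissue on day 3, 4 and 6 on day 7, and in heart 4 and 1 on day 3 and 2 and 0 on day 7. Of all genes, 12.5% were higher and 16.6% lower in adhesion tissue on day 3 and 13.9% and 17.8% on day 7. In heart these shares were 9.19% and 11.2% on day 3 and 8.46% and 10.2% on day 7. Fstl3, whose product binds and blocks activin, had 31, 4 and 8 reads in adhesion tissue and was 6.94-fold lower on day 3 than on day 1 (2.45 to 27.1). Tgif1, a corepressor of Smad2 and Smad3, had 120, 77 and 84 adhesion reads and 1, 14 and 20 heart reads, so its heart ratio of 11.7 on day 3 (1.79 to 496) rested on a single read on day 0. Cd109, a coreceptor that damps TGF-beta signaling, was 1.98-fold higher in adhesion tissue on day 3 (1.14 to 3.5) and 3.98-fold higher on day 7 (2.47 to 6.66). Dcn, whose product decorin binds TGF-beta and which is also in the fibroblast list, was 2.42-fold higher in adhesion tissue on day 7 (2.19 to 2.67). Fstl3 and Tgif1 were lower on day 3 like Smad7, whereas Cd109 was higher.

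Of 6 Smad genes that carry the signal, none was higher in adhesion tissue, 2 were lower on day 3 and 3 on day 7, and of all genes with at least 30 reads 23.7% and 26.1% were lower on these days. In heart 1 was higher on day 3 and none was called on day 7. Smad3 had 204, 119 and 116 adhesion reads and was 1.54-fold lower on day 3 (1.22 to 1.94) and 1.77-fold lower on day 7 (1.4 to 2.24). Smad4 had 184, 147 and 137 adhesion reads and 137, 139 and 155 heart reads, and it was 1.35-fold lower in adhesion tissue on day 7 (1.08 to 1.7). Of 10 other receptor genes, none was higher and 4 were lower in adhesion tissue on day 3, 2 and 3 on day 7, and 1 was higher in heart on each day. Over all genes the adhesion shares were 12.5% higher and 16.6% lower on day 3 and 13.9% and 17.8% on day 7. In heart 9.19% of all genes were higher on day 3 and 8.46% on day 7. With at least 30 reads, 17.8% and 19.4% were higher in adhesion tissue on these days and 11.7% and 10.9% in heart. Eng, the endoglin gene of endothelial cells, was 1.55-fold lower in adhesion tissue on day 3 (1.3 to 1.86). The endothelial list had 401, 468 and 523 CPM there on days 1, 3 and 7, and the part of endothelial cells in the Eng values was not tested. Acvr1c, an activin type I receptor gene, had 34, 22 and 11 adhesion reads and no more than 2 heart reads in any library.

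Of 12 other ligand genes, none was higher and 1 was lower in adhesion tissue on each day. In heart none was higher and 2 were lower on day 3, and 2 were higher and none lower on day 7. The shares over all genes in adhesion tissue were 12.5% higher and 16.6% lower on day 3 and 13.9% and 17.8% on day 7. For heart they were 9.19% and 11.2% on day 3 and 8.46% and 10.2% on day 7, so these counts lay near the background. Inhbc and Inhbe had no read in any library. Bmp10, best known from the atria of the heart, had 36, 0 and 2 reads in adhesion tissue and 14, 2 and 108 reads in heart. It was 6.68-fold higher in heart on day 7 than on day 0 (3.82 to 12.6) and 8.35-fold lower on day 3 (1.92 to 75.7). The part of atrial tissue in the Bmp10 values of these single libraries was not tested.

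Of 12 genes that TGF-beta is known to induce, 8 were higher and 2 lower in adhesion tissue on day 3 and 7 and 3 on day 7, and in heart 9 and 3 on day 3 and 8 and 3 on day 7. The shares over all genes were 12.5% and 16.6%, 13.9% and 17.8%, and in heart 9.19% and 11.2%, and 8.46% and 10.2%, in the same order. Their median log2 ratio was 1.01 and 0.65 in adhesion tissue and 2.81 and 2.81 in heart. Col1a1, a collagen I chain gene that is also in the fibroblast list, had 788, 18262 and 30606 reads in adhesion tissue and 484, 6631 and 7801 in heart. It was 38.6-fold higher in adhesion tissue on day 7 than on day 1 (36.0 to 41.5) and 14.0-fold higher in heart on day 7 than on day 0 (12.7 to 15.3). Timp1, an inhibitor of matrix metalloproteases, did not follow the collagens, with 564, 472 and 361 reads in adhesion tissue and 3, 129 and 37 in heart. Tgfbi resembled Timp1 more than Col1a1, being high in adhesion tissue from day 1 and highest in heart on day 3. These genes are induced by other signals too, and the part of TGF-beta in their levels was not tested.

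**Figure D5:**
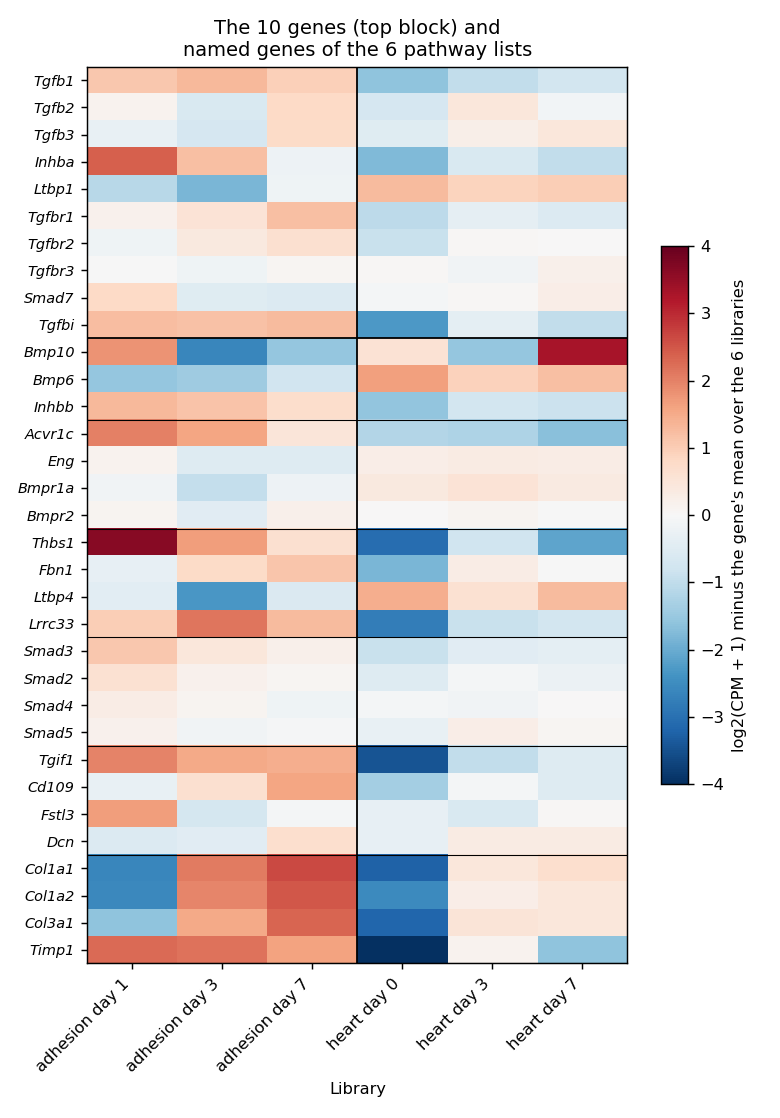
Heat map of log2(CPM + 1) minus the mean of each gene over the 6 libraries (colour) for the 10 genes (top block) and the 23 named genes of the 6 pathway lists (lower blocks, rows), with 1 library per column and adhesion tissue left of heart. Inhba, Thbs1 and Fstl3 are reddest in adhesion tissue on day 1, and Ltbp1 and Ltbp4 are bluest in adhesion tissue on day 3.

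The genes with the most similar course were found by the root mean square distance of centred log2(CPM + 1) over the 6 libraries, among 10110 genes. For Inhba they were Has1, a hyaluronan synthase gene, at 0.21, Slc7a5, an amino acid transporter gene, at 0.23 and Gm6377 at 0.23. Has1 had 44, 26 and 9 reads in adhesion tissue and 2, 6 and 4 in heart. For Tgfbi they were Tnfrsf23 at 0.11, Sqle at 0.13 and Pid1 at 0.13. For Tgfb1 they were Cmip, A630001G21Rik and Syk, a kinase gene of blood cell signaling, each at 0.10. Syk had 639, 578 and 596 reads in adhesion tissue and 79, 132 and 159 in heart. With 6 libraries many genes lie near any course, and these names are a description only.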

How the data were processed

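RNA was extracted from 3 adhesion and 3 heart samples, 1 library per group, and sequenced on a MiSeq. Per the labels, the authors used TopHat, Cufflinks and edgeR with the mm10 build, and the sources used here give neither versions nor the counter. The signal the authors deposited is a read count per gene times 1 factor per library, set within each tissue, and 100% of the values were whole reads to within 0.1 read. The authors also deposited a score, a rank and a q-value per gene from their own comparison, which were not used, and 27 gene names had turned into dates. Other deposited columns held exon lengths, used for RPKM.

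Ratios and exact conditional binomial 95% intervals were computed in Python 3.11.15 with SciPy 1.17.1. A gene counted where its interval excluded 1, or past 3-fold with a pseudocount of 1, over all genes with a read in either library. The procedure was tested on simulated data drawn with counting error only, so the test does not cover variation between mice or dissections. Alternatives were CPM, edgeR 4.0.16 TMM, DESeq2 1.42.0 size factors, CPM without 23 muscle, erythroid and Rn45s genes, 99% intervals, an exact binomial test of 2 libraries with Benjamini-Hochberg adjustment at 0.05, pseudocounts of 0.5 and 5, a 2-fold threshold and at least 30 reads. The removal of a heart share was added after the data were seen. The named pathway genes were up to 4 per list with the interval bound farthest from 1 in any comparison with the first library, given at least 20 reads in the higher library. The 3 most similar genes were sought for Inhba, Tgfbi and Tgfb1 among genes with at least 30 reads in the highest library. Marker lists also covered endothelium, mesothelium, thymus, red cells and platelets. The endothelial list summed to 401, 468 and 523 CPM in adhesion tissue and 869, 974 and 835 CPM in heart, the mesothelial list to 69.3, 92.2 and 58.6 CPM and 36.8, 8.28 and 19.2 CPM, the thymocyte list to 224, 29.7 and 22.8 CPM and 2.92, 4.42 and 19.8 CPM, the platelet list to 104, 163 and 59.6 CPM and 21.6, 44.2 and 19.8 CPM, and the erythroid list, with Hba-a1 and Hba-a2 at 0, to 56.4, 27.2 and 23.9 CPM and 33.9, 16.6 and 31.3 CPM. The members and lists were chosen with earlier results of these data known.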

Additional observations from a re-analysis of the deposited data

How the results depend on the processing

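No paired analysis was possible because each group has 1 library. Of 156 alternative counts of called genes among the 10, 143 lay within 1.5 times the count in the report. The exact binomial test called 2 in place of 4 higher in heart on day 3, 1 in place of 2 lower there, 1 in place of 3 higher in adhesion tissue on day 3, and 0 in place of 1 higher in heart on day 7 against day 3. The 99% interval called 1 in place of 3 higher in adhesion tissue on day 3. In CPM, with or without the 23 muscle, erythroid and Rn45s genes, 1 in place of 2 was lower in heart on day 3. TMM called 5 in place of 3 lower in adhesion tissue than in heart on day 3. At 2-fold, 2 in place of 1 was higher in heart on day 3, 1 in place of 0 in heart on day 7, 2 in place of 0 lower in adhesion tissue on day 3, and on day 7 2 in place of 0 higher and 2 in place of 1 lower there.

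Of 350 alternative log2 ratios 342 stayed inside the interval of the reported ratio. The sign changed in 8, of which 7 (Smad7, Tgfbi and Tgfbr2) had a reported interval that included 1. Ltbp1 in adhesion tissue on day 3 against day 1 turned to 0.07 once the heart share was taken out. That step itself lowers heart genes in the day 1 library, and its result was chosen after seeing the data. On day 7 it gave 1.62 for Ltbp1.

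Over all genes, heart on day 3 had 1483 higher and 1816 lower by the interval, but 2269 and 986 in CPM and 2053 and 1129 without the 23 genes. On day 7 it had 1365 and 1641, but 1911 and 1020 in CPM and 1791 and 1104 without the 23 genes. Day 7 against day 3 in heart had 949 and 709, but 722 and 958 in CPM and 781 and 877 without the 23 genes, and in adhesion tissue 1867 and 1473, but 1555 and 1904 without the 23 genes. On day 7 against day 3 in adhesion tissue 4 in place of 6 of the 10 were higher without the 23 genes and by the exact binomial test, and in heart on day 3 6 in place of 4 were higher in CPM. Adhesion tissue against heart had 4591 and 2987 on day 3, but 3411 and 3743 with TMM, and 4516 and 2589 on day 7, but 3290 and 3424 with TMM and 3423 and 3338 with DESeq2 factors. The exact binomial test gave 836 and 1089 in heart on day 3 and 790 and 903 on day 7, and for day 7 against day 3 the counts were 304 and 177 (heart) and 1173 and 807 (adhesion tissue). The 99% interval gave 933 higher genes in heart on day 3, 891 and 1017 on day 7, 496 and 347 between days 7 and 3, and 905 lower in adhesion tissue between days 7 and 3. Over 3-fold, heart had 1075 and 286 on day 3, with 1903 and 858 at a pseudocount of 0.5, 314 and 19 at 5, 2489 and 1231 at 2-fold, and 244 and 19 at 30 reads or more. Day 7 had 1104 and 245, with 1881 and 762, 273 and 12, 2494 and 1081, and 238 and 16 in the same order. Adhesion tissue had 640 and 1136 on day 3, with 304 and 479 at a pseudocount of 5, 1611 and 2323 at 2-fold and 299 and 477 at 30 reads or more. Day 7 had 879 and 835, with 425 and 319, 1905 and 2058, and 447 and 374 in the same order. TMM gave 666 higher and 108 lower in heart on day 3 and 597 and 71 on day 7, CPM gave 81 lower on day 3 and 667 and 53 on day 7, and without the 23 genes 136 were lower on day 3 and 700 and 111 on day 7. The cause of these shifts was not tested. Depth limited Inhba in heart, where it had 2 to 7 reads.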
